A study of Mus musculus with 8 samples.

Results

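The haemoglobin and erythroid genes described here are 8 genes of the red cell lineage, chosen by name from the deposited comparison of ARE-/- with WT mouse hearts. They are the alpha-globin genes Hba-a1 and Hba-a2, the beta-globin genes Hbb-bs and Hbb-bt, and Alas2, Slc25a37, Bpgm and Slc4a1. All 8 were found in that gene table, which holds 4820 genes. It lists only genes that passed the authors' threshold, an adjusted p under 0.05 by DESeq2, out of 19606 genes that the adjustment implies were tested. A gene had to pass to be there at all, so the presence of all 8 says nothing beyond the choice of names.

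The study measured total RNA by paired-end sequencing in hearts of 4 ARE-/- and 4 WT mice. All 8 animals were male, of strain C57B6/J and 20 to 25 weeks old, and no treatment of either group is given. ARE is not spelled out in the labels. It is read here as the AU-rich element of the Ifng transcript, a stretch known to shorten the life of the RNA for interferon gamma. The sources used here give neither how the line was made nor where the deletion begins and ends. The title of the study names interferon gamma, androgens and mitochondrial function in myocytes as its subject, and the comparison asks how heart transcripts differ in ARE-/- mice.

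Haemoglobin is built from alpha-globin and beta-globin chains, each holding a haem group with an iron atom that binds oxygen. Red cells make it while they mature in the bone marrow, when they import iron into mitochondria, make haem there and translate globin RNA at very high rates. They lose the nucleus before they enter the blood but keep RNA for a while as reticulocytes, so whole-organ RNA holds globin transcripts from blood inside its vessels. Heart muscle cells themselves store oxygen on myoglobin, a relative of the globins.

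Library totals were 15674834, 13416171, 17937623 and 19432098 reads in ARE-/- hearts, replicates 1 to 4, and 14321679, 14566851, 17129012 and 16023978 reads in WT hearts. These totals were inferred from read counts and levels scaled by library total and gene length, so which reads they include is not known. Ifng, read here as the targeted gene, had 103, 37, 27 and 61 reads in ARE-/- hearts and 0, 3, 0 and 1 reads in WT hearts, so every ARE-/- library lay above every WT library. Of the listed genes, 2512 rose and 2308 fell in ARE-/- hearts, and the median log2 difference of all 4820 was 0.44. ARE-/- replicate 1 and WT replicate 3 stood apart from the other 3 libraries of their group, and values without this pair of libraries are given below for the 8 genes, the ratios of their reads and the gene lists. All 8 listed genes of 10 cardiomyocyte markers fell, where 24.6% of all genes tested were listed and 11.8% fell. The summed normalised counts of these markers were 353605 to 533840 in ARE-/- hearts and 688792 to 975031 in WT hearts.

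ARE-/- hearts held less transcript of every one of the 8 genes. On the log2 scale the differences ran from -2.69 ± 0.39 for Hba-a2 to -1.34 ± 0.37 for Alas2 (SE, n = 4 hearts in each group), which puts WT levels 6.45-fold to 2.53-fold above ARE-/- levels. All 8 fell in the authors' DESeq2 test, where 11.8% of the genes tested fell. In normalised counts all 8 lay lower in every ARE-/- heart than in any WT heart, as did 40.6% of the listed genes. All 8 were at least 2-fold lower, as were 24.4% of the listed genes. At an adjusted p under 0.01, 7 of the 8 fell, all but Hbb-bs, where 6.97% of the genes tested did. In an edgeR refit of the listed genes all 8 fell, as did 42.8% of the genes fitted, and with counts scaled by library totals 6 fell, all but Hbb-bs and Alas2, as did 20.8% of the genes fitted. Normalised counts here are read counts divided by the authors' size factors, and a log2 difference takes the ARE-/- mean of log2(normalised count + 0.5) and subtracts the WT mean. In whole hearts, fewer cells of a type and less RNA per cell cannot be told apart, and the sources used here do not say how much blood each heart still held at RNA extraction.

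**Figure D1:**
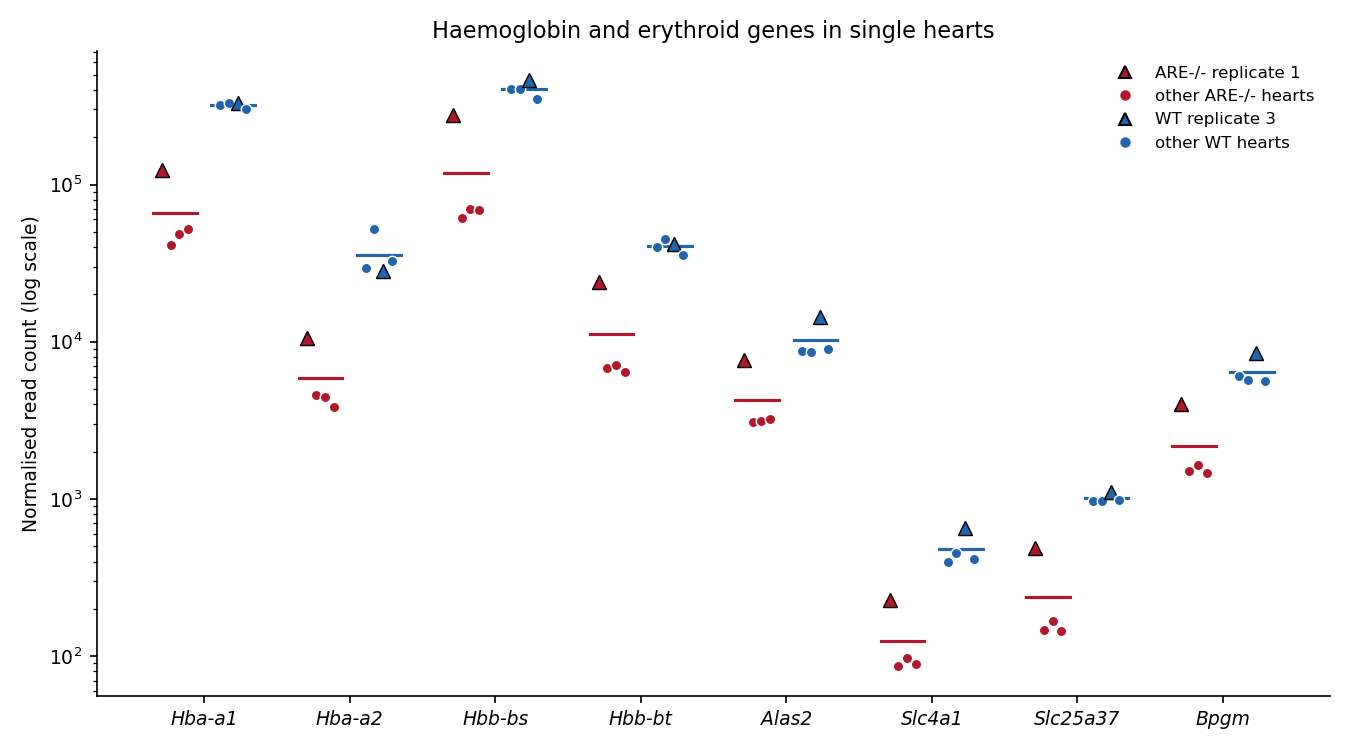
Normalised read counts of the 8 genes (log scale) in each of 4 ARE-/- hearts (red, left) and 4 WT hearts (blue, right), with a line at the group mean and triangles for ARE-/- replicate 1 and WT replicate 3. For every gene the 4 ARE-/- hearts lie below the 4 WT hearts, and ARE-/- replicate 1 is the ARE-/- heart nearest to WT.

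Alpha-globin is encoded on chromosome 11 by Hba-a1 (chr11:32283511-32284465, forward strand, mm10) and Hba-a2 (chr11:32296489-32297298, forward strand). Both genes encode an alpha chain of adult haemoglobin. Their coding sequences, each 429 bases long, differ by 1 base, C381T, counted from 1 at the first base of the start codon with Hba-a1 first. Reads that miss the differing parts of the transcripts match both genes equally well, and 67.5% of the 50-base windows of the Hba-a1 transcript also occur in Hba-a2 and 86.9% of those of Hba-a2 occur in Hba-a1. The stretch around the differing base, from coding position 351 to 411 in the GENCODE M21 annotation, shows how little separates the genes. The capital marks the differing base.
Hba-a1: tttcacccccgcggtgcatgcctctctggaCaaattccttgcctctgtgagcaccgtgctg
Hba-a2: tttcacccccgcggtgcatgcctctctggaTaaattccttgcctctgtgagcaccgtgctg

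Hba-a1 had 124000, 41253, 48176 and 51778 normalised counts in ARE-/- replicates 1 to 4, against 319781, 329553, 327905 and 300607 in WT replicates 1 to 4. The WT hearts lay close together, while ARE-/- replicate 1 stood well above the other 3 ARE-/- hearts and still far below WT. Means were 66302 ± 38713 in ARE-/- and 319461 ± 13275 in WT (SD, n = 4 each). Hba-a1 fell by 2.42 ± 0.36 on the log2 scale (SE), with an adjusted p of 4.89e-11 in the authors' deposited table (DESeq2).

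Hba-a2 had 10484, 4594, 4450.05 and 3839 normalised counts in ARE-/- hearts, against 29497, 52087, 28215 and 32767 in WT hearts. WT replicate 2 lay well above the other 3 WT hearts, a gap that Hba-a1 did not show. The log2 difference of Hba-a2 was -2.69 ± 0.39 (SE), with an adjusted p of 3.36e-13 in the authors' deposited table (DESeq2). Hba-a2 took 7.80%, 10.02%, 8.46% and 6.90% of the alpha-globin reads in ARE-/- hearts and 8.45%, 13.6%, 7.92% and 9.83% in WT hearts, and these shares overlapped. The split of alpha-globin reads between the copies is uncertain because the sources used here do not say how reads that fit both were handled.

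Beta-globin is encoded on the reverse strand of chromosome 7 by Hbb-bs (chr7:103826534-103828096) and Hbb-bt (chr7:103812524-103813996), the adult beta chains of C57BL mice. Here too the coding sequences, each 444 bases long, differ by 1 base, C417T, with Hbb-bs first. Of the 50-base transcript windows, 65.8% of those of Hbb-bs occur in Hbb-bt and 58.3% of those of Hbb-bt occur in Hbb-bs. The last coding bases, positions 387 to 444, show the differing base in capitals.
Hbb-bs: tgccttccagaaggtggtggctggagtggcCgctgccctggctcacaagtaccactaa
Hbb-bt: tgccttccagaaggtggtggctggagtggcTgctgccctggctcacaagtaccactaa

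Hbb-bs had 275606, 60887, 70234 and 68889.5 normalised counts in ARE-/- hearts, against 402052, 407690, 461572 and 351909 in WT hearts. ARE-/- replicate 1 held 4.00 times the median of the other ARE-/- hearts, the widest such gap among the 8 genes, and lay close to the lowest WT heart. Hbb-bs averaged 118904 ± 104549 in ARE-/- and 405806 ± 44842 in WT (SD, n = 4 each). The log2 difference was -2.09 ± 0.52 (SE), and the adjusted p of 0.0276 in the authors' deposited table (DESeq2) was the weakest of the 8. The call did not hold in every edgeR refit. Scaled by library totals, Hbb-bs had an adjusted p of 0.0836 (edgeR). With any library other than ARE-/- replicate 1 left out, its edgeR adjusted p lay between 0.0439 and 0.0614, and without ARE-/- replicate 1 it was 5.83e-08. In FPKM, reads scaled by library total and gene length, ARE-/- replicate 1 at 27642 lay above the lowest WT heart at 27465, so the groups overlapped on that scale.

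Hbb-bt had 24140.2, 6811, 7119 and 6401 normalised counts in ARE-/- hearts, against 40279, 44692, 41623 and 35585 in WT hearts. Again 3 ARE-/- hearts lay close together and replicate 1 lay between them and WT. Hbb-bt fell by 2.12 ± 0.46 on the log2 scale (SE), with an adjusted p of 2.85e-05 in the authors' deposited table (DESeq2). Its share of the beta-globin reads was 8.05%, 10.1%, 9.20% and 8.50% in ARE-/- hearts and 9.11%, 9.88%, 8.27% and 9.18% in WT hearts, which overlapped.

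Because the globin genes and Alas2 fell together, the sequence before their start sites is shown, from RefSeq on GRCm38.p6 and only as far as the first annotated exon. Start sites were found for 6 of the 8 genes. Erythroid genes are known to be switched on by GATA1, which binds AGATAA or TGATAA, and by KLF1, which binds CACCC-like stretches. Both motifs were searched on both strands in the 250 bases before each start, GATA as AGATAA or TGATAA and KLF as CCNCNCCC (a GATA match cannot overlap a KLF match, while KLF matches can overlap each other). A GATA match was found in Hba-a1, Hba-a2, Hbb-bs and Alas2, 1 in each, and none in Hbb-bt or Bpgm, while 16.6% of 32851 mouse start sites had one. The KLF letters occurred 4 times before Alas2, of which at most 2 do not overlap each other, 1 time each before Hbb-bs, Hbb-bt and Bpgm, and not before Hba-a1 or Hba-a2, while 45.9% of start sites had them. The match of Hbb-bt is the only KLF match within the stretches shown, since those of Alas2, Hbb-bs and Bpgm reach into searched bases past the start of the first annotated exon. The windows of Hba-a1 and Hba-a2 were identical over all 247 bases that could be aligned, so 1 of them is shown. Capitals mark the GATA letters in Hba-a2 (chr11:32296242-32296488, forward strand), Hbb-bs (chr7:103828097-103828178, reverse strand) and Alas2 (chrX:150547167-150547374, forward strand, where TTATCT is AGATAA on the other strand), and the KLF letters in Hbb-bt (chr7:103813997-103814173, reverse strand).
Hba-a2: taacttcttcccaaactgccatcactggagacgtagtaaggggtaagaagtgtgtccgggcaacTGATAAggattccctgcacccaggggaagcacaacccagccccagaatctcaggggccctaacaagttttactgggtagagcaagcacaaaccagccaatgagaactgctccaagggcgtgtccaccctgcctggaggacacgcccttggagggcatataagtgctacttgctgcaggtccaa
Hbb-bs: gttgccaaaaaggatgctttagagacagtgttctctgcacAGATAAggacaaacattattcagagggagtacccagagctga
Hbb-bt: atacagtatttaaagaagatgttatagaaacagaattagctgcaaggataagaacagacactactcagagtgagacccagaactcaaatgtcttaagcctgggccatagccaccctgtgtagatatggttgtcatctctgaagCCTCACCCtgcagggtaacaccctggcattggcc
Alas2: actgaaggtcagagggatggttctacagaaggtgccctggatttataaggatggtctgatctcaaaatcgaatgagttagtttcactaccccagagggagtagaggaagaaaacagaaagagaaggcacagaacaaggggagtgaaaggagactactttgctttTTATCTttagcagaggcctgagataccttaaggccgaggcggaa
A match of letters is a description of these windows and not a bound site.

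Haem synthesis and its iron supply are represented by Alas2 and Slc25a37. Alas2 (chrX:150547375-150570638, forward strand) encodes the erythroid aminolevulinate synthase, which makes the first intermediate of haem in mitochondria. Alas2 had 7693, 3104, 3122 and 3219 normalised counts in ARE-/- hearts, against 8701, 8626, 14363 and 9053 in WT hearts. The groups did not overlap, but ARE-/- replicate 1 came near to the lowest WT heart, and WT replicate 3 lay 1.65-fold above the median of the other WT hearts. Alas2 fell by 1.34 ± 0.37 on the log2 scale (SE), the smallest fall of the 8, with an adjusted p of 0.00115 in the authors' deposited table (DESeq2). Scaling by library totals took its edgeR adjusted p to 0.109, and leaving out a single library other than ARE-/- replicate 1 gave 0.0368 to 0.0576. In FPKM the groups overlapped, with ARE-/- replicate 1 at 295 and the lowest WT heart at 243. Alas2 lies within Apex2 on the opposite strand, and since the sources used here do not say whether counting used strand, their reads cannot be told apart.

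Slc25a37 (chr14:69241848-69285112, reverse strand) encodes mitoferrin, the carrier that brings iron into the mitochondria of developing red cells. Slc25a37 had 489, 147, 168 and 144 normalised counts in ARE-/- hearts, against 977, 972, 1115 and 989 in WT hearts. The WT hearts were tightly grouped, and ARE-/- replicate 1 held 3.34 times the median of the other ARE-/- hearts. The log2 difference of Slc25a37 was -2.31 ± 0.42 (SE), with an adjusted p of 3.08e-07 in the authors' deposited table (DESeq2). This gene overlaps 4 other annotated genes, none of which is listed, and reads shared with those on the opposite strand cannot be told apart.

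Bpgm and Slc4a1 serve the gas transport of the finished red cell. Bpgm (chr6:34476207-34505613, forward strand) encodes the mutase that makes bisphosphoglycerate, which loosens the hold of haemoglobin on oxygen. Bpgm had 4033, 1507, 1637 and 1461 normalised counts in ARE-/- hearts, against 6027, 5741, 8491 and 5596 in WT hearts. WT replicate 3 was the highest heart, as for Alas2, and ARE-/- replicate 1 was again above its group. Bpgm fell by 1.71 ± 0.38 on the log2 scale (SE), with an adjusted p of 2.84e-05 in the authors' deposited table (DESeq2).

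Slc4a1 (chr11:102348824-102366203, reverse strand) encodes the chloride and bicarbonate exchanger of the red cell membrane, which also anchors the membrane skeleton. Slc4a1 had 226, 86.2, 97.5 and 88.9 normalised counts in ARE-/- hearts, against 399, 453.5, 654 and 412 in WT hearts. Slc4a1 showed the same order of hearts within each group as Alas2 at the top end, with ARE-/- replicate 1 and WT replicate 3 highest. The log2 difference of Slc4a1 was -2.04 ± 0.37 (SE), with an adjusted p of 1.61e-07 in the authors' deposited table (DESeq2).

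Per length of gene, the 8 genes spanned several orders of magnitude. Mean FPKM was 11069 ± 11052 in ARE-/- and 30837 ± 3512 in WT for Hbb-bs, and 6727 ± 4756 in ARE-/- and 27011 ± 934 in WT for Hba-a1 (SD, n = 4 each). Hbb-bs ranked 5th in ARE-/- and 4th in WT by mean FPKM among all listed genes, and Hba-a1 ranked 8th in ARE-/- and 5th in WT. The minor copies followed, with Hbb-bt at 1138 ± 1028 in ARE-/- and 3405 ± 259 in WT, and Hba-a2 at 746 ± 489 in ARE-/- and 3788 ± 1097 in WT. Alas2 averaged 149 ± 97.3 FPKM in ARE-/- and 297 ± 86.5 in WT, and Bpgm 69.0 ± 48.5 in ARE-/- and 172 ± 39.0 in WT. Slc25a37 was low, at 2.86 ± 2.39 FPKM in ARE-/- and 10.1 ± 0.878 in WT. Slc4a1 was the lowest, at 1.94 ± 1.30 in ARE-/- and 6.25 ± 1.64 in WT. Within the ARE-/- group the SD came near to the mean for Hbb-bs and Hbb-bt, and replicate 1 was the highest ARE-/- heart in FPKM for all 8 genes.

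Together the 4 globin genes took 3.39%, 0.756%, 0.825% and 0.841% of the inferred library totals in ARE-/- hearts, against 4.60%, 4.78%, 5.18% and 4.38% in WT hearts. The globin share was thus lower in every ARE-/- heart than in any WT heart, and 3 of the 4 ARE-/- hearts lay below 1%. Its mean was 1.45% ± 1.29 in ARE-/- and 4.74% ± 0.341 in WT (SD, n = 4 each), a difference of -3.28 percentage points. Without ARE-/- replicate 1 and WT replicate 3 that difference was -3.78 points.

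Alpha-globin reads per beta-globin read numbered 0.449, 0.677, 0.680 and 0.739 in ARE-/- hearts, against 0.790, 0.844, 0.708 and 0.860 in WT hearts. These ratios overlapped, since WT replicate 3 lay below ARE-/- replicate 4. In both groups the library that stood apart had the lowest ratio of its group, and without both the means were 0.699 in ARE-/- and 0.831 in WT. The alpha-globin transcripts are richer in G and C than the beta-globin transcripts, with 57.2% in Hba-a1 and 56.9% in Hba-a2 against 51.3% in Hbb-bs and 50.8% in Hbb-bt. With offsets that remove the trend of counts with GC content in each library, the edgeR log2 fold change was -3.00 for Hba-a1 and -3.37 for Hba-a2, and -2.11 for Hbb-bs and -2.15 for Hbb-bt, against -2.27, -2.61, -1.77 and -1.87 without them.

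Set against globin reads, the other 4 genes behaved unequally. Alas2 had 17.7, 27.3, 24.0 and 24.6 reads per 1000 globin reads in ARE-/- hearts, against 11.0, 10.3, 16.7 and 12.6 in WT hearts. Alas2 was therefore higher per globin read in every ARE-/- heart than in any WT heart, with only a narrow gap between ARE-/- replicate 1 and WT replicate 3. Its mean was 23.4 ± 4.07 in ARE-/- and 12.7 ± 2.86 in WT (SD, n = 4 each), and without both libraries that stood apart 25.3 in ARE-/- and 11.3 in WT. Slc25a37 had 1.13, 1.29, 1.29 and 1.10 reads per 1000 globin reads in ARE-/- hearts and 1.23, 1.16, 1.30 and 1.37 in WT hearts, which overlapped throughout. Slc4a1 had 0.522, 0.759, 0.750 and 0.679 in ARE-/- hearts and 0.504, 0.544, 0.762 and 0.572 in WT hearts, also with overlap. Bpgm had 9.29, 13.3, 12.6 and 11.2 in ARE-/- hearts and 7.61, 6.88, 9.88 and 7.76 in WT hearts. For Bpgm the overlap came from the same libraries, because WT replicate 3 exceeded ARE-/- replicate 1 and no other pair crossed. Without both, the means per 1000 globin reads were 12.3 in ARE-/- and 7.42 in WT for Bpgm, 1.23 in ARE-/- and 1.26 in WT for Slc25a37, and 0.729 in ARE-/- and 0.540 in WT for Slc4a1.

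**Figure D2:**
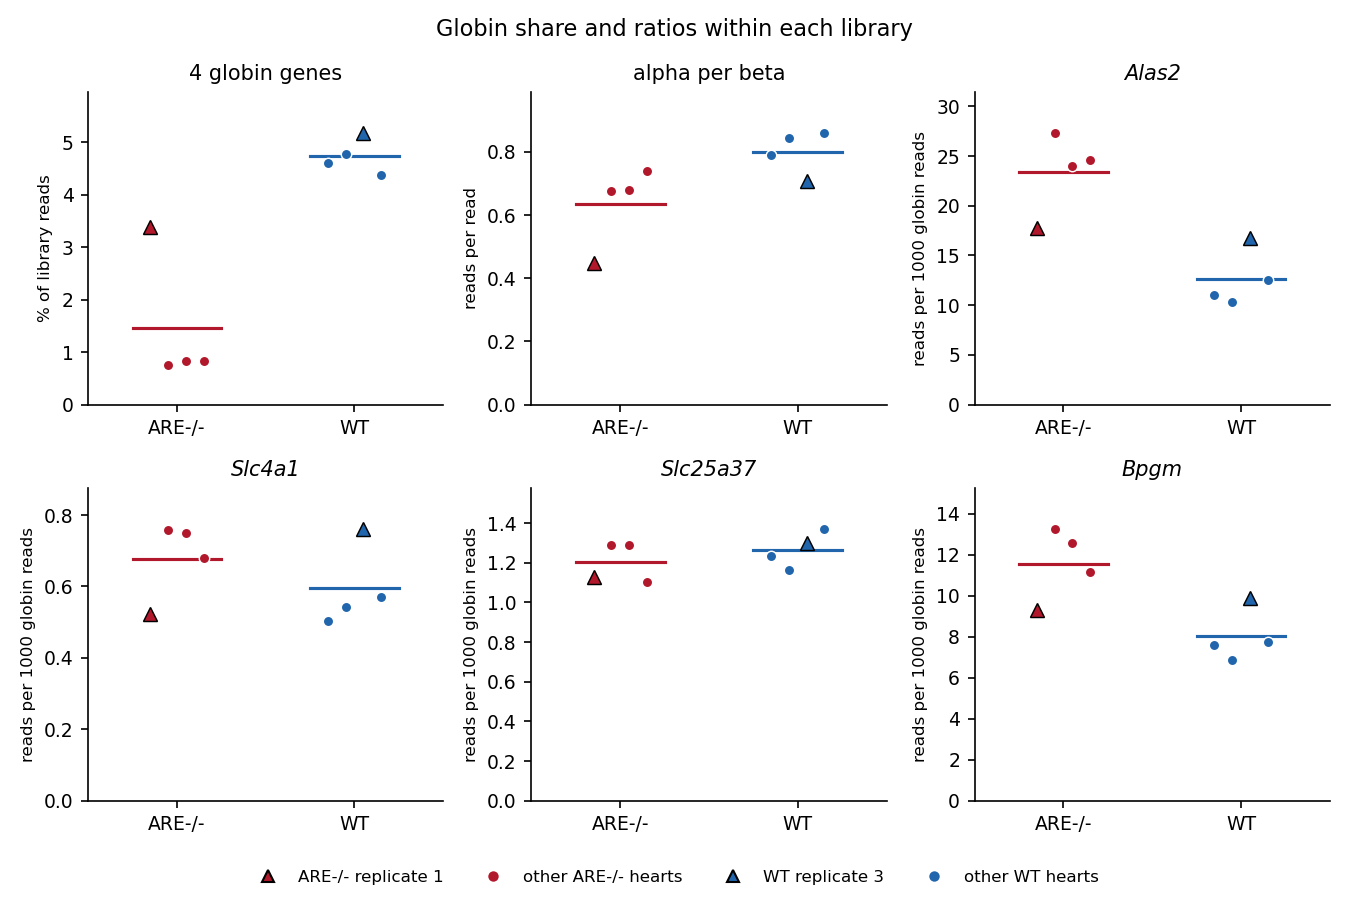
Share of library reads on the 4 globin genes, alpha-globin reads per beta-globin read, and reads of Alas2, Slc4a1, Slc25a37 and Bpgm per 1000 globin reads, each in 4 ARE-/- hearts (red, left) and 4 WT hearts (blue, right) with a line at the mean. The globin share is lower in every ARE-/- heart and Alas2 per globin read is higher in every ARE-/- heart, while the other 4 ratios overlap.

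The libraries that stood apart set much of the error. Relative to the median of the other ARE-/- hearts, ARE-/- replicate 1 held 2.36-fold (Hba-a2) to 4.00-fold (Hbb-bs) the normalised counts. WT replicate 3 exceeded the median of the other WT hearts in Alas2 (1.65-fold), Slc4a1 (1.59-fold) and Bpgm (1.48-fold), but was near it for Hba-a1 (1.03-fold) and Hbb-bt (1.03-fold) and below it for Hba-a2 (0.861-fold). For all 8 genes ARE-/- replicate 1 was the ARE-/- heart nearest to WT, so leaving it out was bound to enlarge the falls. Without both libraries the log2 differences were larger and tighter for all 8 genes, which is no added support. They were -2.76 ± 0.10 for Hba-a1, -3.11 ± 0.26 for Hba-a2, -2.54 ± 0.09 for Hbb-bs and -2.56 ± 0.10 for Hbb-bt (SE, n = 3 each). For the other genes they were -1.48 ± 0.03 for Alas2, -2.68 ± 0.07 for Slc25a37, -1.92 ± 0.06 for Bpgm and -2.21 ± 0.08 for Slc4a1. Without both libraries WT levels lay 2.79-fold (Alas2) to 8.62-fold (Hba-a2) above ARE-/- levels. Over all 8 hearts, the exact two-sided permutation test of log2 normalised counts gave p = 0.0286 for each of the 8 genes. This is the smallest p that 4 hearts against 4 can give, and groups that do not overlap always give it. The 8 genes were also taken from genes that had passed in the same libraries, so this test adds no evidence of a fall.

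Most of the other red cell genes that were listed fell, but most were not listed and have no known direction here. Apart from the 8 genes, lists of red cell genes held 72 names (globins, haem synthesis, red cell membrane, erythroid transcription factors with the erythropoietin receptor, and reticulocyte genes), of which 27 were listed, 24 fell and 3 rose. Over all genes tested, 24.6% were listed and 11.8% fell. Their median log2 difference was -1.22, beside 0.44 over all listed genes. With counts scaled by library totals, 14 of them fell in the edgeR refit, where 20.8% of the genes fitted did, against 22 with the authors' size factors, where 42.8% did. Of 11 other globin genes with the globin chaperone, 3 were listed and all 3 fell. The theta-globin genes Hbq1a and Hbq1b, low copies of the alpha cluster, fell by 2.41 ± 0.53 and 1.88 ± 0.43 on the log2 scale (SE). Myoglobin (Mb), which belongs to heart muscle and not to red cells, fell by 0.75 ± 0.18, and in ARE-/- replicate 1 it was the lowest of all hearts rather than the nearest to WT. Of 15 genes of haem synthesis 3 were listed. Besides Alas2 these were Fech, the enzyme that puts iron into haem, at -0.87 ± 0.17, and Uros, an enzyme of the middle of the pathway, at -0.66 ± 0.08.

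Red cell membrane genes numbered 20, of which 8 were listed, 7 fell, Slc4a1 among them, and 1 rose. Beside this, 24.6% of all genes tested were listed and 11.8% fell. Epb4.1, whose protein strengthens the membrane skeleton, fell by 1.19 ± 0.17 on the log2 scale (SE). Ank1, the ankyrin that ties that skeleton to the membrane and that muscle also uses, fell by 0.89 ± 0.24. For Ank1 the pattern by heart differed from that of Slc4a1, because ARE-/- replicate 1 (1028 normalised counts) was the lowest ARE-/- heart and WT replicate 3 (2353) the lowest WT heart. Stom, a membrane protein found in many cells, was called higher at 0.62 ± 0.23, but its groups overlapped and ARE-/- replicate 1 (1597) lay among the WT hearts.

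Of 21 reticulocyte genes 15 were listed, 14 fell and 1 rose, with a median log2 difference of -1.35, beside 24.6% listed and 11.8% fallen of all genes tested. Without both libraries that stood apart the median was -1.54 for the reticulocyte genes, -1.69 for the red cell membrane genes (-1.52 with all libraries) and -0.85 for haem synthesis (-0.87 with all). Besides Bpgm, Mkrn1, an erythroid-enriched ubiquitin ligase, fell by 1.35 ± 0.26 on the log2 scale (SE), and Bnip3l, which drives removal of mitochondria from maturing red cells, was called lower at -1.10 ± 0.42 with overlapping groups. The antioxidant enzymes Prdx2 and Cat, used in many cells, fell by 0.72 ± 0.08 and 0.30 ± 0.07. Scaled by library totals, Prdx2 was at -0.53 and Cat at -0.096, so the fall of Cat depended on scaling. The list of erythroid transcription factors with the erythropoietin receptor held 11 genes, of which 2 were listed. Bcl11a, which silences fetal globin genes and also acts in lymphocytes, fell by 1.06 ± 0.23, and Lmo2, which endothelial cells also use, rose by 0.68 ± 0.13. Gata1, Klf1 and Epor were not listed, so their direction was not analysed here.

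**Figure D3:**
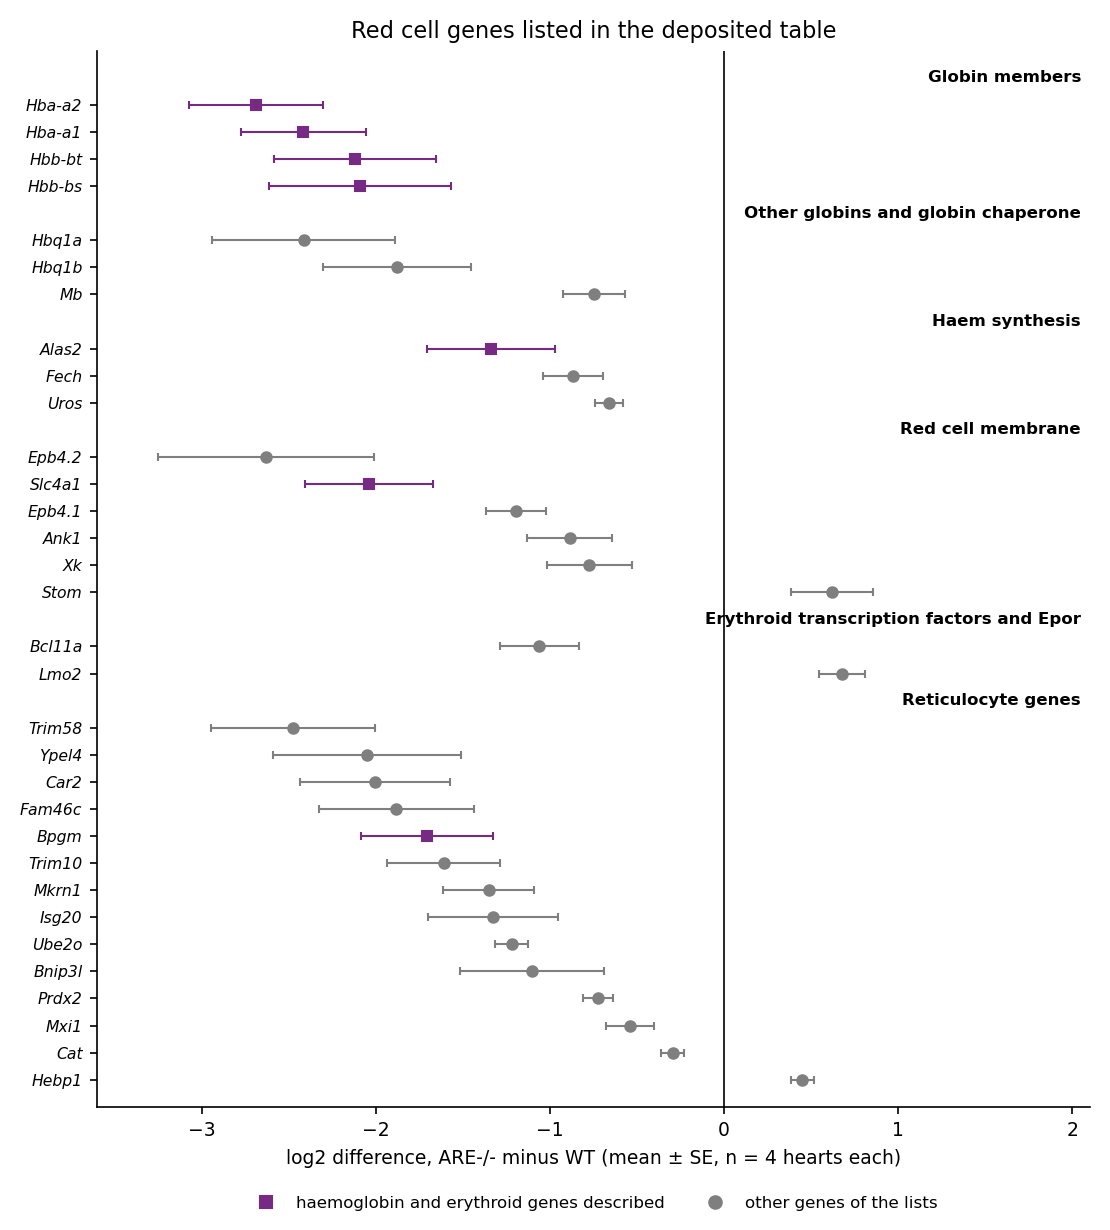
Log2 differences, ARE-/- minus WT (mean ± SE, n = 4 hearts each), of listed genes of the red cell lists, with 7 of the 8 genes described (all but Slc25a37, an iron gene) as purple squares and the rest as grey circles. Values left of 0 are lower in ARE-/- hearts, and 28 of the 31 genes plotted, Mb not counted, lie there.

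Genes of haem breakdown and scavenging, and of iron uptake, storage and export, did not move as one. Of 10 genes of haem breakdown and scavenging 5 were listed, 4 rose and 1 fell. Hmox1, the haem oxygenase that opens the haem ring, had 359, 245, 208 and 241 normalised counts in ARE-/- hearts, against 92.5, 63.4, 96.8 and 73.0 in WT hearts, and rose by 1.68 ± 0.22 on the log2 scale (SE). Spic, a transcription factor of macrophages that recycle red cells, rose by 1.83 ± 0.29. Haptoglobin (Hp), which binds free haemoglobin, rose by 1.16 ± 0.31, and the biliverdin reductase Blvrb by 0.62 ± 0.14. Cd163, the macrophage receptor for haemoglobin bound to haptoglobin, fell by 0.82 ± 0.19. Among 24 iron genes 8 were listed, 3 rose and 5 fell, Slc25a37 among the falls. Of all genes tested, 24.6% were listed and 11.8% fell. The ferritin light chain Ftl1, an iron store, rose by 0.64 ± 0.05, and the transferrin receptor Tfrc, which takes iron up, fell by 0.75 ± 0.07. Steap4, a metal reductase, fell by 0.52 ± 0.19. Pcbp1, an iron chaperone, and Slc25a28, the mitoferrin of non-erythroid cells, were called higher at 0.90 ± 0.31 and 0.65 ± 0.35 with overlapping groups. Without both libraries that stood apart Slc25a28 was at 1.02 ± 0.06 (SE, n = 3 each), and the median of the listed genes was 1.51 for haem breakdown (1.16 with all libraries) and -0.61 for iron (-0.63 with all).

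The listed markers of platelets, neutrophils and B cells were also lower, though most markers of each were not listed. Among all genes tested, 24.6% were listed and 11.8% fell. Platelet and B cell markers were not listed more often than that, and the fall of 1 of 10 B cell markers lies near the share of all genes. Of 14 platelet markers 3 were listed and all 3 fell, with summed normalised counts of 1150 to 1528 in ARE-/- hearts and 1692 to 2672 in WT hearts. They were Pf4 (-0.58 ± 0.14), Ppbp (-0.92 ± 0.35) and Nrgn (-0.53 ± 0.18), the last pair with overlapping groups. Of 14 neutrophil markers 5 were listed and all 5 fell, with sums of 19.2 to 43.3 in ARE-/- hearts and 115 to 221 in WT hearts. Most of these counts were low. Mpo had no read in any ARE-/- heart and 4, 4, 1 and 3 reads in WT hearts. The size of such falls depended on the number added before the log. For Mpo the log2 difference was -4.91 with 0.1 added and -0.72 with 5 added. Pax5 was the only listed gene of 10 B cell markers and fell, with 3.20 to 21.3 normalised counts in ARE-/- hearts and 49.1 to 66.8 in WT hearts. Of 10 endothelial markers 3 were listed and fell, with sums of 1982 to 2635 in ARE-/- hearts and 2950 to 3954 in WT hearts. The part of these cells in the lower globin transcripts was not tested. Of 14 hypoxia targets 5 were listed, 2 rose (Slc2a1 and Car9) and 3 fell (Vegfa, Epas1 and Pdk1). Without both libraries that stood apart the median log2 difference was -0.65 for platelet markers (-0.58 with all libraries), -3.22 for neutrophil markers (-3.07), -0.76 for endothelial markers (-0.64) and -0.77 for cardiomyocyte markers (-0.84). Without both, Vegfa was at -0.26 ± 0.07 (-0.42 with all) and Nrgn at -0.35 ± 0.17 on the log2 scale (SE, n = 3 each).

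Some listed genes had a profile over the 8 hearts close to that of the globins. Likeness was measured as the root mean square distance over the 8 libraries between the log2 normalised counts of a gene, centred on its own mean, and the mean profile of the 4 globin genes, among 4021 genes with at least 20 normalised counts on average. Slc25a37 ranked first of all, at a distance of 0.117, nearer than any single globin gene, although those genes enter the profile themselves. Slc4a1 lay at 0.270, Bpgm at 0.376 (rank 23) and Alas2 at 0.563 (rank 110), so Alas2 was the least alike of the 8. Among the nearest genes outside the 8 were the annotated pseudogene Tmem181b-ps at 0.198, the carbonic anhydrase Car2 at 0.236 and the antisense transcript Gm10371 at 0.239. The poly(A) polymerase Fam46c lay at 0.301 and Cubn, an uptake receptor best known from kidney and gut, at 0.303. Car2 and Fam46c also stood in the list of reticulocyte genes. Cubn had only 4 to 32 reads in a heart. The distance takes in the difference between the groups, so it does not show likeness within a group. Among WT hearts, Cubn was lowest in replicate 3 (28.1 normalised counts), where Hbb-bs was highest (461572). All of these genes share the same 8 libraries, including ARE-/- replicate 1.

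**Figure D4:**
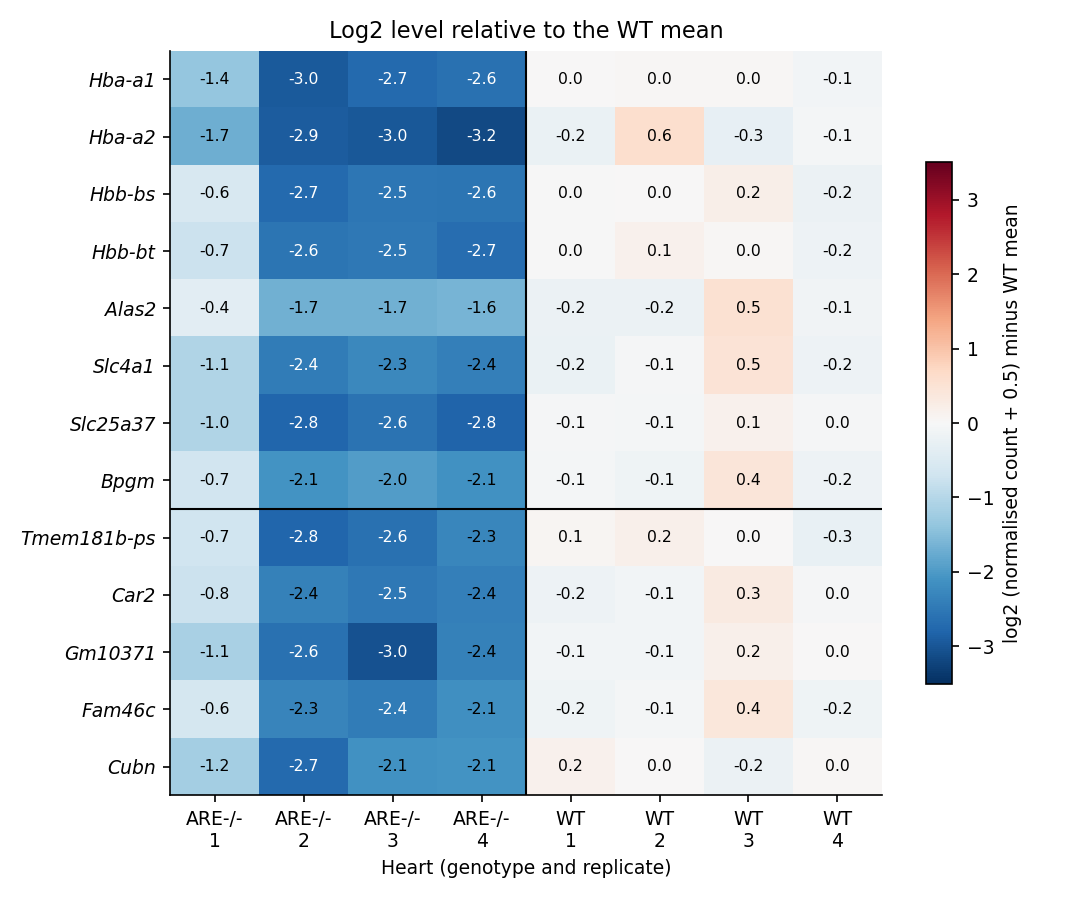
Log2 levels relative to the WT mean in each heart, for the 8 genes (upper block) and 5 other listed genes near to the globins (lower block), ARE-/- replicates 1 to 4 left and WT replicates 1 to 4 right. Blue is lower than the WT mean, and ARE-/- replicate 1 is paler than the other ARE-/- hearts in every row.

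In the authors' deposited table of Gene Ontology terms, 114 of 2065 terms held at least 1 of the 8 genes. Erythrocyte differentiation held 42 listed genes with an adjusted p of 0.00142 by the authors, among them Hba-a1, Hba-a2, Alas2 and Bpgm. Of its genes that were matched by symbol in the gene table, 21 rose and 18 fell in ARE-/- hearts. Iron ion homeostasis held 30 genes, including Alas2 and Slc25a37, with an adjusted p of 0.0102 by the authors. Hemoglobin metabolic process held 9 genes, including Alas2, with an adjusted p of 0.0178 by the authors. Of the matched genes, 14 rose and 14 fell in the iron term, and 3 rose and 5 fell in the hemoglobin term. In erythrocyte homeostasis 24 rose and 18 fell, and in iron ion transport 6 rose and 8 fell. Regulation of erythrocyte differentiation held none of the 8 genes, and there 14 rose and 3 fell.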

How the data were processed

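Total RNA of 4 ARE-/- and 4 WT hearts was sequenced in pairs of reads, per the labels' protocols, and groups came from the library titles. The submitters' processing notes name STAR, DESeq2 and mm10, without versions. The sources used here give no read counter, strand setting or annotation release. Per the file headers, the deposited gene table gives raw read counts of each gene in each library, with FPKM beside them. Further columns are the authors' mean normalised signal of each group, their log2 fold changes and their p-values, raw and adjusted. A second deposited table gives the authors' p-values of Gene Ontology terms, with no tool stated. Genes at or above an adjusted p of 0.05 are not in the gene table, as the design of the tests had assumed, so unlisted genes were not analysed here and no direction is known for them. Library totals ran from 13416171 to 19432098 reads and were inferred from the raw counts, FPKM and gene lengths.

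Size factors were solved from the authors' group means, and counts were divided by them. Calls are those of the authors (DESeq2); log2 differences use an offset of 0.5, which draws low genes towards 0, and carry the SE from 4 libraries per group. The 8 genes and the gene lists were chosen with earlier results of these data known. Named genes are the 8, up to 5 listed genes of each list by mean level, and, of the 8 listed genes nearest to the globins outside them, 5; the plot of red cell genes shows further listed genes of those lists. Some single genes are not reported here, though the counts over lists hold them. Libraries were treated as separate mice; p-values measure only the spread between these libraries, and no pair of libraries agreed within sampling noise. Alternatives were refits of the listed genes with edgeR 4.0.16 (quasi-likelihood, limma 3.58.1, R 4.3.3) or DESeq2 1.42.0, adjusted as if 19606 genes had been fitted. The edgeR fit was also run on simulated counts. Those had no library that stood apart and no selection of genes, so that run does not show how the refits behave here. The alternatives changed the adjusted p, the minimum fold, the scaling, the filter on low counts (10 counts in 4 libraries), a replicate block, GC content and the libraries used. The same alternatives were applied to the red cell lists after the data had been seen. Coordinates in the files equalled GENCODE M21, from which coding sequences came; sequences before start sites came from RefSeq.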

Additional observations from a re-analysis of the deposited data

Results flagged for a closer look

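In the 134 groups of 4 hearts examined, 35 had a single heart lying far from the other 3 relative to the range of the group, 22 of them in ARE-/- replicate 1 and 13 in WT replicate 3. Chance flags about 1 in 20 independent groups, but these groups share the same 8 libraries. Some of the genes were also picked for their likeness to the globins. The number flagged can therefore not be judged by that rate. Of the 16 groups of the 8 genes, 11 were flagged. All 8 genes were high in ARE-/- replicate 1, with normalised counts of 124000 for Hba-a1, 10484 for Hba-a2, 275606 for Hbb-bs, 24140.2 for Hbb-bt, 7693 for Alas2, 226 for Slc4a1, 489 for Slc25a37 and 4033 for Bpgm. The globin share of its reads, 3.39%, was likewise apart. In WT replicate 3 the heart lay high for Alas2 at 14363, Slc25a37 at 1115 and Bpgm at 8491 normalised counts.

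Among other named genes, ARE-/- replicate 1 lay above its group in Hbq1b (32.7 normalised counts), Epb4.1 (1914), Mkrn1 (2140) and Bnip3l (2924). ARE-/- replicate 1 was also above it in Tmem181b-ps (111), Car2 (280.4), Fam46c (1588) and Ngp (2.45, from 3 reads against 0 in the other ARE-/- hearts). It lay below its group in Slc25a28 (309), Ank1 (1028), Stom (1597), Epas1 (1102) and Tnni3 (41046). WT replicate 3 lay above its group in Hbq1b (89.1 normalised counts), Fech (3878), Hp (1325), Epb4.1 (4317), Bnip3l (3680), Ppbp (1027) and Fam46c (3222), and below it in Ank1 (2353), Tnnt2 (127077) and Tnni3 (86721).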

How the results depend on the processing

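All 8 genes fell in the authors' test, and 7 at an adjusted p of 0.01, where Hbb-bs was lost. Of all genes tested, 11.8% and 6.97% did. At least 2-fold falls, the DESeq2 refit, and the edgeR refits with the authors' size factors, TMM, the low-count filter, GC offsets or without both libraries that stood apart also gave 8. At least 2-fold falls were found in 24.4% of the listed genes. Of all genes fitted, 47.8% fell in the DESeq2 refit, 42.8% with the authors' size factors and 47.1% with TMM. With the filter 37.2% fell, with GC offsets 29.7%, and without both libraries 47.1%. Library totals gave 6, without Hbb-bs and Alas2, where 20.8% of the genes fitted fell. Leaving out each library in turn gave 6 to 8, where 25.3% to 45% of the genes fitted fell. The difference in globin share was -3.28 points, and -3.93 to -3.05 when each library was left out in turn. The log2 difference of each of the 8 genes kept its direction, between -3.11 and -1.14 over offsets, scalings and libraries left out, as did all other named genes, for which 629 values moved by less than the SD between replicates and 21 by more. Of the 72 other red cell genes, 24 fell in the authors' test, 14 with library totals and 17 to 24 otherwise, beside the shares of all genes given above. TMM moved the median of all listed genes by -0.13, library totals by 0.20 and GC offsets by -0.17 on the log2 scale, and GC offsets came from the same selected genes.

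Replicate numbers come from the library titles, and the labels name no pairing of hearts. The deviations of libraries with the same number correlated at 0.018, 0.056, -0.145 and 0.195. The replicate block used these same numbers, so any other pairing or a batch was not tested. With the replicate block the edgeR refit still gave 8 fallen genes of the 8 and 21 of the other red cell genes. Of all genes fitted, 33.4% fell there. Refits used only genes that had passed in the same libraries, so they say little about unlisted genes.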
